A study of Mus musculus with 6 samples.

Results

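The 9 genes described here are keratins and markers of ductular cells: the hepatocyte keratins Krt8 and Krt18, the ductular keratins Krt7, Krt19 and Krt23, the transcription factor Sox9, and the surface proteins Epcam, Cldn7 and Cd24a. They were chosen by name, with earlier results of these data known, and all 9 were found among the 25102 genes measured. The 6 libraries were made from poly(A) RNA of liver, 3 from mice that had diethylnitrosamine followed by carbon tetrachloride (DEN+CCl4) and 3 from control mice, all male C57BL/6J. Mice of both groups entered the study at 2 weeks of age. The DEN+CCl4 mice received 1 injection of diethylnitrosamine, a carcinogen that hepatocytes activate, at 1 mg/kg, and about 6 weeks later carbon tetrachloride, which injures hepatocytes, at 0.2 mL/kg 2 times a week for at most 14 weeks. The labels do not state what the controls were injected with, or whether a DEN+CCl4 library came from a tumour or from the liver around it. Levels are FPKM, fragments scaled to gene length and library total by the authors, so levels can be compared between genes per length. Where 3 values of a group are given, they are replicates 1, 2 and 3 in that order. Read depth is unknown.

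Keratins are the intermediate filaments of epithelial cells and polymerise as partners, a type I chain with a type II chain. Hepatocytes make mainly the type II chain Krt8 and the type I chain Krt18, which together protect the cell against mechanical and toxic stress. Cholangiocytes, the cells that line bile ducts, add Krt7 and Krt19. In chronic liver injury, ductular cells can multiply, a change known as the ductular reaction, and hepatocytes themselves can switch on Sox9.

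DEN+CCl4 replicate 3 stood apart in scale. Mitochondrially encoded genes took 64.2% of its FPKM, against 26.6% to 43.0% in the other 5 libraries, and its median gene among the 8528 with a mean of at least 1 FPKM was at 1.19 FPKM, against 3.43 to 4.46 FPKM elsewhere. Values are therefore also given after median-ratio scaling, which divides a library by the median, over genes, of its ratio to the geometric mean of all 6. These divisors were 1.28, 1.37 and 0.356 for DEN+CCl4 replicates 1, 2 and 3 and 1.17, 1.16 and 1.26 for control replicates 1, 2 and 3. The 8528 genes were tested with limma on log2(FPKM + 1), and 1.48% passed an adjusted p of 0.05, 0.833% higher and 0.645% lower in DEN+CCl4 liver. The median log2 fold change of these genes was -0.27 as deposited and 0.01 after median-ratio scaling. Of the 9 genes, 3 reached that mean, Krt8, Krt18 and Krt19, and 0 of these 3 passed in either direction. The other 6 were read from a fit over the 24933 genes above 0 in any library, in which limma called 0% of all genes and 0 of the 6, with 4.44% of all genes and 1 of the 9, Epcam, at an unadjusted p under 0.05. All fold changes of the 9 are on the log2(FPKM + 1) scale, which shrinks differences of genes near 0.

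Krt8, Krt18 and Krt7 lie in a keratin cluster on chromosome 15 (GRCm38). Krt8 spans 101996698 to 102004482 on the minus strand, and Krt18 spans 102028180 to 102032027 on the plus strand, with 23698 bases between their starts. Krt7 spans 101411043 to 101430313 on the plus strand. On chromosome 11 lie Krt19 (100140810 to 100148665, minus strand), Krt23 (99477974 to 99493137, minus strand), Sox9 (112782224 to 112787760, plus strand) and Cldn7 (69964779 to 69967885, plus strand). Epcam lies on chromosome 17 (87635979 to 87651129, plus strand) and Cd24a on chromosome 10 (43578284 to 43584265, plus strand). All 9 are annotated as protein-coding in GENCODE M21. The promoters of the cluster members are shown because Krt8 and Krt18 were abundant in every library while Krt7, from the same cluster, stayed under 1 FPKM. The sequences run 5′ to 3′ from 250 bases before to 50 bases after the RefSeq start on GRCm38.p6, at chr15:102004293-102004592 (minus strand) for Krt8, chr15:102027966-102028265 (plus strand) for Krt18 and chr15:101412153-101412452 (plus strand) for Krt7, and capitals mark matches to the motifs named after them.
Krt8: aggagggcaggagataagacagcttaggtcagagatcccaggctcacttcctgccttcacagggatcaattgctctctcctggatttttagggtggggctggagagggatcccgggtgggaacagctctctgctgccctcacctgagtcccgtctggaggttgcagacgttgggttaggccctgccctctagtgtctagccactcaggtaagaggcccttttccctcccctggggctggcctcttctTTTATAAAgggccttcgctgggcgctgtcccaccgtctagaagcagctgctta
Krt18: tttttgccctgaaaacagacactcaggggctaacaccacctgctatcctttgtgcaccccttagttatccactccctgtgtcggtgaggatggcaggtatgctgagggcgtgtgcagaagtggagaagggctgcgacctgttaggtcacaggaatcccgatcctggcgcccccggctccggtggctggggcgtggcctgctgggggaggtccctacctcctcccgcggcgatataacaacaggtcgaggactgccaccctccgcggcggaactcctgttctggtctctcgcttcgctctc
Krt7: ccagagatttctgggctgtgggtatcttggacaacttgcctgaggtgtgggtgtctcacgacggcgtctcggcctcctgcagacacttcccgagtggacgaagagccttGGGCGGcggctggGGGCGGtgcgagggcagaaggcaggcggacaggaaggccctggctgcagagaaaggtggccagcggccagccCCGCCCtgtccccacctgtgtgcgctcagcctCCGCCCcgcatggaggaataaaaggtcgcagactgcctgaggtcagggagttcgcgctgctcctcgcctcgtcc
The motifs searched on both strands were TATAAA (the TATA box), GGGCGG (the GC box), CCAAT and the AP-1 motif TGANTCA. They were present in 13.6%, 35.9%, 37.4% and 7.79% of 32544 promoter windows of the same length. The Krt8 window held TATAAA in 2 overlapping matches, 1 on each strand, that form 1 run next to the RefSeq start. The Krt7 window held 4 matches to GGGCGG, 2 on each strand, and the Krt18 window held no match to the 4 motifs. Counts of the dinucleotide CG were 6 for Krt8, 17 for Krt18 and 21 for Krt7, against a median of 7 over all windows. RefSeq windows were found for 6 of the 9 genes, and Krt19, Sox9 and Cd24a were not among them.

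Krt18 and Krt8 made up nearly all keratin RNA in every library. Of the summed FPKM of the 14 keratin genes in the table, these genes held 99.1%, 97.9% and 99.2% in DEN+CCl4 livers and 99.4%, 98.7% and 99.2% in control livers. The ductular keratins Krt7, Krt19 and Krt23 together held 0.646%, 1.76% and 0.268% in the DEN+CCl4 livers and 0.478%, 0.858% and 0.587% in the controls. None of the other 9 keratin genes was above 0.52 FPKM in any library, the value of the basal epidermal keratin Krt5 in DEN+CCl4 replicate 3. In the other DEN+CCl4 livers Krt5 was listed at 0 and 0.16 FPKM, against 0 in all 3 controls. Krt10, a keratin of differentiating epidermis, read 0.42, 0.43 and 0 FPKM in DEN+CCl4 livers and 0.22, 0.45 and 0.40 FPKM in controls.

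Krt8, the type II chain of hepatocytes, was at 85.68, 59.99 and 31.36 FPKM in DEN+CCl4 livers, against 80.9, 38.3 and 85.4 FPKM in control livers. The groups overlapped, with means of 59.0 ± 27.2 FPKM in DEN+CCl4 liver and 68.2 ± 26.0 FPKM in control liver (SD, n = 3 each). The log2 fold change was -0.23 ± 0.98 (SE; 95% interval -2.16 to 1.70; limma adjusted p = 0.996; exact two-sided permutation p = 0.7, where 0.1 is the smallest possible). After median-ratio scaling Krt8 was at 67.1, 43.7 and 88.0 in DEN+CCl4 livers, against 69.3, 33.1 and 67.8 in controls, and its log2 fold change turned to 0.24 (95% interval -0.87 to 1.35; limma adjusted p = 0.875). The lowest DEN+CCl4 value thus became the highest with the scale of replicate 3, while the groups overlapped on both scales. Krt8-ps, a processed pseudogene on chromosome 7 that holds 32.2% of the 31-base words of the Krt8 transcript, was at 1.53, 1.12 and 1.01 FPKM in DEN+CCl4 livers and 1.89, 0.62 and 1.73 FPKM in controls. Reads from the shared stretch may be divided between these copies, so the level of Krt8 is uncertain to that extent.

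Krt18, its type I partner, was the most abundant of the 9 genes in all 6 libraries. It was at 126, 212 and 150 FPKM in DEN+CCl4 livers, against 154, 103 and 127 FPKM in control livers. Replicate 1 lay among the controls, replicate 2 above all of them and replicate 3 below the highest. The means were 163 ± 44.4 FPKM in DEN+CCl4 liver and 128 ± 25.5 FPKM in control liver (SD, n = 3 each), a log2 fold change of 0.33 ± 1.04 (SE; 95% interval -1.72 to 2.37; limma adjusted p = 0.996; exact permutation p = 0.5). After median-ratio scaling the values were 98.6, 155 and 422 in DEN+CCl4 livers, against 132, 89.3 and 101 in controls, with a log2 fold change of 0.80 (95% interval -0.62 to 2.23; limma adjusted p = 0.657; exact permutation p = 0.3). For Krt8 and Krt18 alike, limma drew the SE in part from other genes of similar level. Without that trend, the SE as deposited was 0.54 for Krt8 and 0.46 for Krt18, and neither passed (limma adjusted p = 0.996 and 0.990). The rank of a gene within its library does not depend on scale. By FPKM, Krt18 ranked 285, 136 and 91 among all genes in DEN+CCl4 livers, against 248, 265 and 291 in the controls. Krt8 ranked 412, 420 and 261 in DEN+CCl4 livers and 440, 625 and 427 in controls. Krt18 ranked above every control in DEN+CCl4 replicates 2 and 3. Krt8 ranked above every control in all 3 DEN+CCl4 livers, as did 7.53% of tested genes, while 7.75% ranked below every control. DEN+CCl4 replicate 3 had 16447 genes above 0, against 19260 to 20634 in the other 5 libraries, and the FPKM and scaled values of Krt8 overlapped between the groups. Of the 31-base words of the Krt18 transcript, 11.4% also occur in other genes, so its level too is uncertain to that extent.

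**Figure D1:**
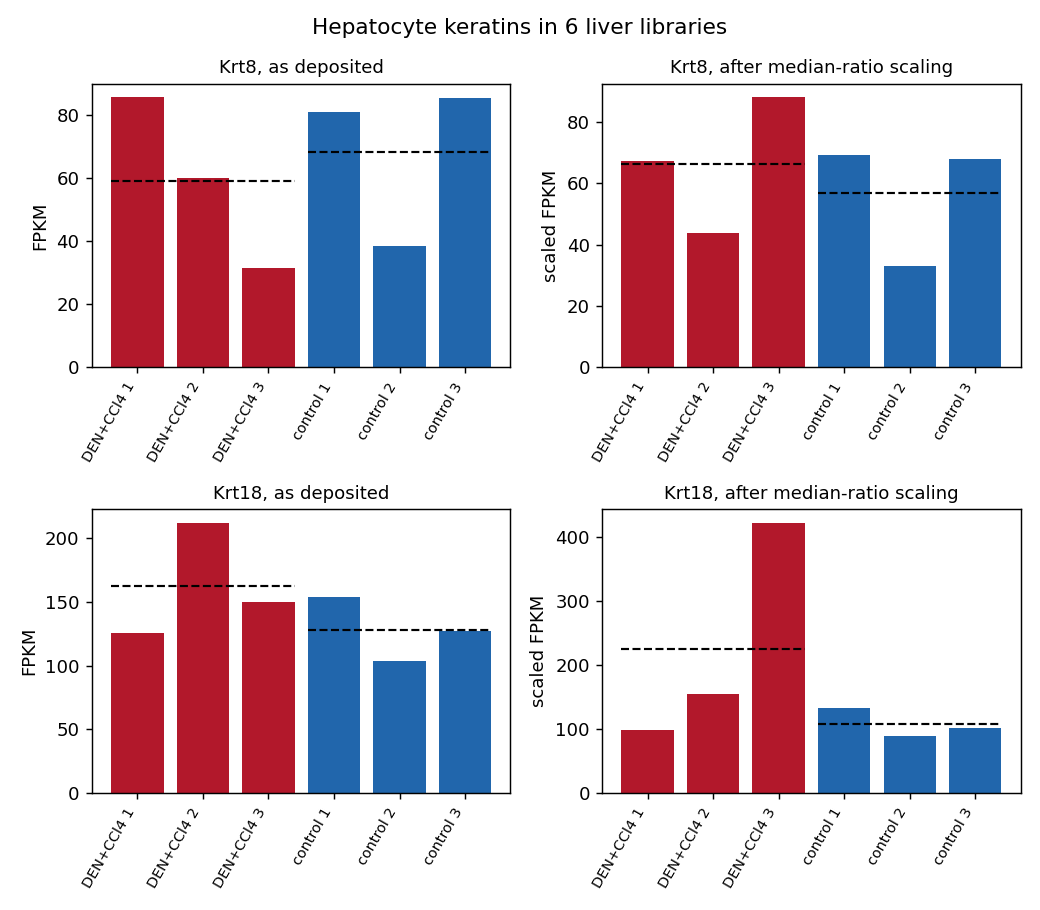
FPKM of Krt8 (top) and Krt18 (bottom) in each library, as deposited (left) and after median-ratio scaling (right). Red bars are DEN+CCl4 livers, blue bars control livers and dashed lines group means. Scaling raises DEN+CCl4 replicate 3, where Krt18 goes to 422, against 89.3 to 132 in controls.

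A ratio of both chains within a library also does not depend on scale. Krt8 was at 0.681, 0.283 and 0.209 of Krt18 in DEN+CCl4 livers, against 0.524, 0.371 and 0.671 in control livers. DEN+CCl4 replicates 2 and 3 lay below all controls and replicate 1 above all of them. The mean log2 ratio was -1.55 ± 0.88 in DEN+CCl4 liver and -0.98 ± 0.43 in control liver (SD, n = 3 each), a difference of -0.57 (exact two-sided permutation p = 0.4; 0.8 when adjusted over the 4 ratios tested). Krt18 was above Krt8 in all 6 libraries.

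The 7 ductular genes were at or below 3.06 FPKM in every library. Summed, they reached 2.60, 8.80 and 2.73 FPKM in DEN+CCl4 livers, against 2.13, 2.58 and 1.88 FPKM in control livers. After median-ratio scaling the sums were 2.04, 6.42 and 7.66 in DEN+CCl4 livers and 1.83, 2.23 and 1.49 in controls, so replicates 2 and 3 were above all controls and replicate 1 lay among them. In DEN+CCl4 replicate 3, Cd24a and Sox9 gave 3.31 and 2.98 of the scaled sum of 7.66. Krt19, Krt7, Epcam and Cldn7 were below all controls in that library on either scale. In bulk tissue, a change in the number of ductular cells and a change in RNA per cell cannot be told apart. In the controls the order of mean level was Krt19, Sox9, Krt23, Cd24a, Epcam, Krt7 and Cldn7. Neighbours in that order overlapped, except that the lowest Epcam value, 0.17 FPKM, was just above the highest Krt7 value, 0.16 FPKM. Krt19 at its highest control value, 0.93 FPKM, was far under the lowest Krt8 value of any library, 31.4 FPKM.

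Krt19, the type I keratin most used to mark cholangiocytes, was at 0.86, 3.06 and 0.13 FPKM in DEN+CCl4 livers, against 0.93, 0.81 and 0.50 FPKM in control livers. The DEN+CCl4 livers held both the highest and the lowest value. Krt19 reached the mean of 1 FPKM only through replicate 2. Its log2 fold change was 0.23 ± 0.39 (SE; 95% interval -0.53 to 0.99; limma adjusted p = 0.996; exact permutation p = 0.8). Without DEN+CCl4 replicate 2 it was -0.26. Relative to Krt18 in the same library, the log2 ratio of Krt19 was -7.18, -6.11 and -10.07 in DEN+CCl4 livers and -7.36, -6.98 and -7.96 in controls (difference -0.35; exact permutation p = 0.9; adjusted p = 0.9).

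Krt7, the type II keratin of ducts, was lower than Krt19 in every library, with 0.16, 0.49 and 0.03 FPKM in DEN+CCl4 livers and 0.11, 0.16 and 0.11 FPKM in controls. DEN+CCl4 replicate 2 was again the highest and replicate 3 the lowest of the 6 libraries (log2 fold change 0.11, 95% interval -0.20 to 0.41; limma adjusted p = 0.888). The log2 ratio of Krt7 to Krt19 was -2.36, -2.62 and -1.81 in DEN+CCl4 livers and -2.97, -2.27 and -2.09 in controls, a difference of 0.18 (exact permutation p = 0.7; adjusted p = 0.9). The ratio groups overlapped, and both keratins were highest in the same library and lowest in the same library. Krt23, a type I keratin seen in ductular and stressed epithelial cells, was at 0.36, 1.33 and 0.33 FPKM in DEN+CCl4 livers and 0.09, 0.26 and 0.65 FPKM in controls. Its groups overlapped (log2 fold change 0.30, 95% interval -0.37 to 0.97; limma adjusted p = 0.875).

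Sox9, the transcription factor of ductal identity that injured hepatocytes can also express, had the highest ratio of group means among the 9 genes. It was at 0.48, 2.98 and 1.06 FPKM in DEN+CCl4 livers, against 0.26, 0.63 and 0.22 FPKM in control livers. DEN+CCl4 replicates 2 and 3 were above all controls, while replicate 1 was below control replicate 2. The mean was 1.51 ± 1.31 FPKM in DEN+CCl4 liver and 0.370 ± 0.226 FPKM in control liver (SD, n = 3 each), a ratio of 4.07. The log2 fold change of 0.76 ± 0.40 (SE; 95% interval -0.16 to 1.68) did not pass (limma adjusted p = 0.875; exact permutation p = 0.2). After median-ratio scaling Sox9 was at 0.376, 2.17 and 2.98 in DEN+CCl4 livers, against 0.223, 0.545 and 0.175 in controls (log2 fold change 0.99, 95% interval -0.0009 to 1.98; limma adjusted p = 0.694). In 1 setting, chosen after the data were seen, limma called Sox9: median-ratio scaling with the filter on scaled values and without DEN+CCl4 replicate 1 (log2 fold change 1.41, adjusted p = 0.0175). In that setting 8.18% of all 8249 genes tested were called, and 3.86% of all were called higher. Sox9 reached the filter there through its high values in DEN+CCl4 replicates 2 and 3, and the library left out is the DEN+CCl4 liver that lay among the controls, so the call is no support for a difference. Over all genes above 0 the same libraries gave a limma adjusted p of 0.0697.

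Epcam, an adhesion protein on the surface of ducts and progenitor cells, had lower values in DEN+CCl4 liver. DEN+CCl4 replicates 1 and 2 read 0.11 and 0.10 FPKM and replicate 3 was listed at 0, against 0.22, 0.21 and 0.17 FPKM in control livers. All DEN+CCl4 livers were below all controls, as in 4.06% of all genes above 0, 5.08% of genes with a mean of 0.1 to 1 FPKM and 5.35% of tested genes. The log2 fold change was -0.17 (95% interval -0.31 to -0.02; limma unadjusted p = 0.0269 and adjusted p = 0.875; exact permutation p = 0.1, the smallest possible). The log2 ratio of Epcam to Krt19 was -2.86, -4.80 and -3.81 in DEN+CCl4 livers and -2.03, -1.90 and -1.50 in controls. The ratio groups did not overlap and differed by -2.01 (exact permutation p = 0.1, the smallest possible; 0.4 when adjusted over the 4 ratios tested). Since Epcam was listed at 0 in DEN+CCl4 replicate 3, the ratio there depends on the FPKM added. With 0.1 FPKM added to both terms in place of 0.01, the ratio groups overlapped and differed by -0.99 (exact permutation p = 0.3). With values this close to 0, a step of 0.01 FPKM in the table is a visible part of each value, and no count of reads stands behind it.

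Cldn7, a tight junction claudin that partners with Epcam, was listed at 0 in DEN+CCl4 replicate 3 and read 0.16 and 0.19 FPKM in replicates 1 and 2, against 0.10, 0.21 and 0.06 FPKM in controls. These values overlapped (log2 fold change -0.01, 95% interval -0.20 to 0.18; limma adjusted p = 0.979). Cd24a, a glycoprotein of progenitor cells that neutrophils, B cells and erythroid precursors also carry, was at 0.47, 0.65 and 1.18 FPKM in DEN+CCl4 livers, against 0.42, 0.30 and 0.17 FPKM in control livers. All 3 DEN+CCl4 livers were above all controls, as in 3.83% of all genes above 0, 6.76% of genes with a mean of 0.1 to 1 FPKM and 3.01% of tested genes. The lowest DEN+CCl4 value, 0.47 FPKM, was close to the highest control value, 0.42 FPKM. The log2 fold change was 0.43 (95% interval -0.10 to 0.97; limma adjusted p = 0.875; exact permutation p = 0.1, the smallest possible). After scaling, Cd24a was at 0.368, 0.474 and 3.31 in DEN+CCl4 livers and 0.360, 0.259 and 0.135 in controls. Of the 9 genes, 1 thus lay above all controls in all DEN+CCl4 livers and 1 below, on either scale, against 7.68% and 4.63% of all genes above 0 after scaling, 13.1% and 4.88% of genes with a mean of 0.1 to 1 FPKM, and 7.63% and 6.52% of tested genes.

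**Figure D2:**
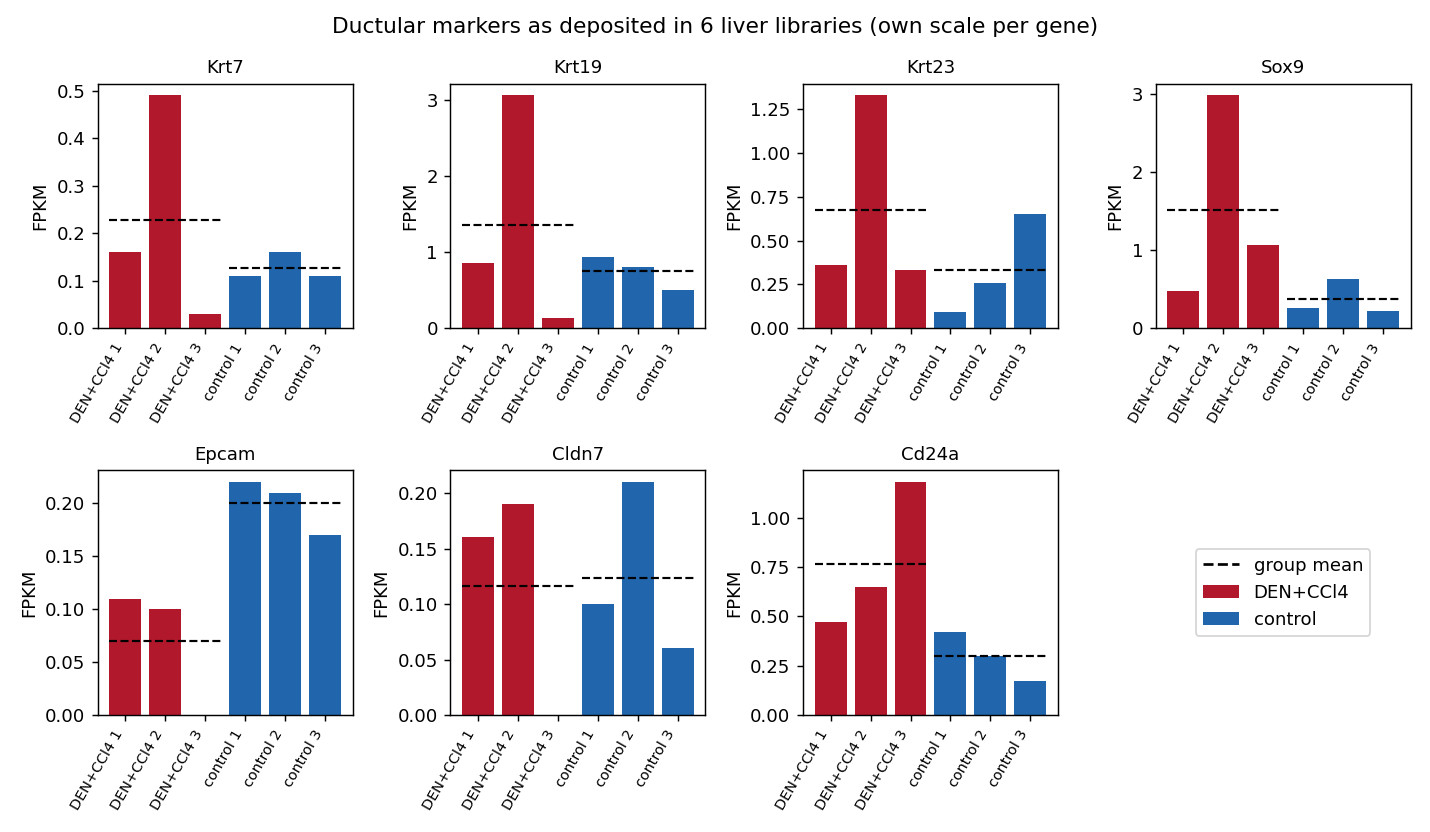
FPKM of the 7 ductular genes in each library as deposited, each panel with its own scale from 0. Red bars are DEN+CCl4 livers, blue bars control livers and dashed lines group means. Krt19 and Krt7 peak in DEN+CCl4 replicate 2 (3.06 and 0.49 FPKM), Cd24a in replicate 3 (1.18 FPKM), and all Epcam values of DEN+CCl4 livers lie under the lowest control, 0.17 FPKM.

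**Figure D3:**
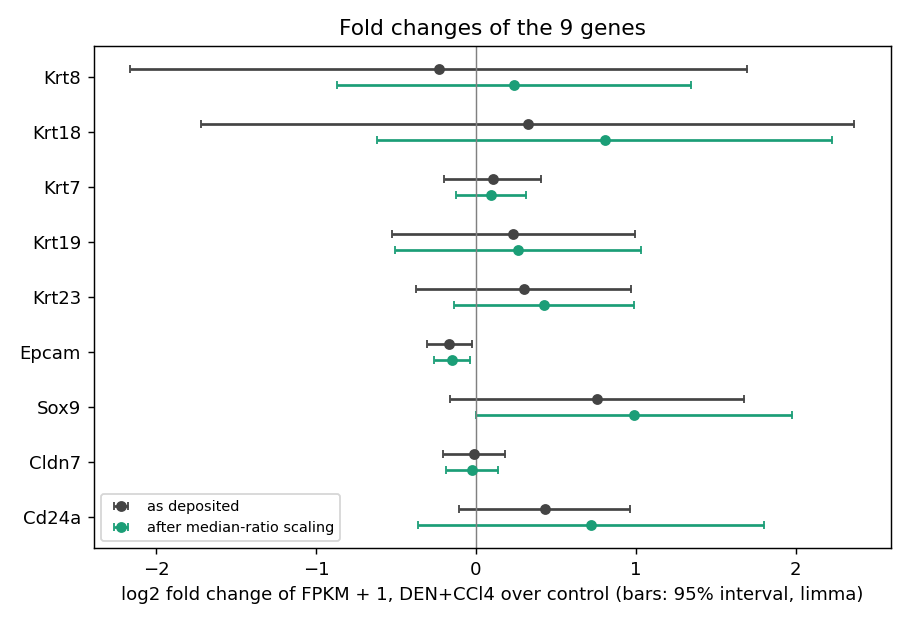
Log2 fold change of FPKM + 1 in DEN+CCl4 over control liver for the 9 genes, with 95% intervals from limma, as deposited (dark) and after median-ratio scaling (green). The interval of Epcam lies below 0 on both scales (-0.31 to -0.02 and -0.26 to -0.04) before any adjustment for the number of genes tested, and Krt8 is on opposite sides of 0 on the 2 scales.

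**Figure D4:**
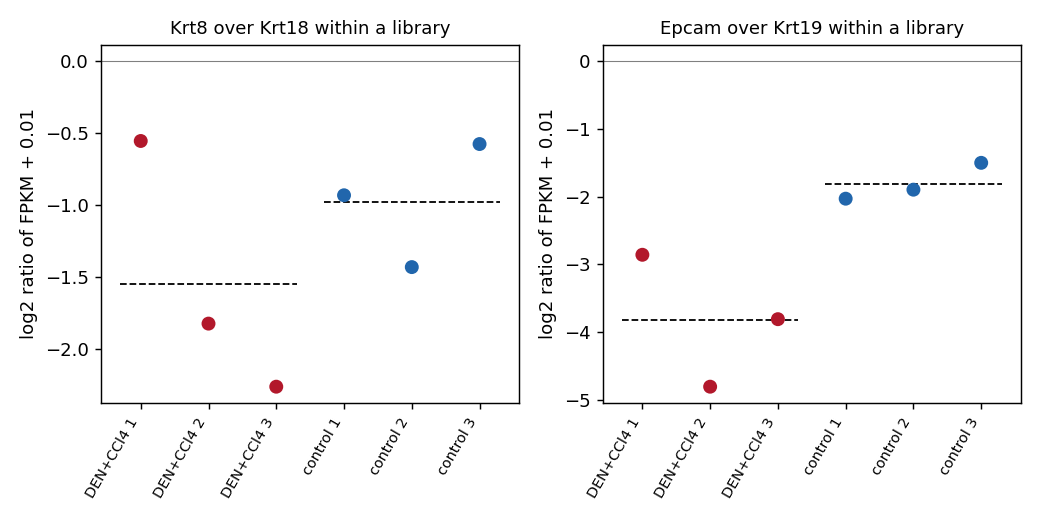
Log2 ratio of FPKM + 0.01 within each library for Krt8 over Krt18 (left) and Epcam over Krt19 (right), with DEN+CCl4 livers in red, control livers in blue and dashed group means. Krt8 over Krt18 overlaps between the groups, and Epcam over Krt19 runs from -4.80 to -2.86 in DEN+CCl4 livers and from -2.03 to -1.50 in controls. Epcam is listed at 0 in DEN+CCl4 replicate 3, and with 0.1 FPKM added in place of 0.01 the groups overlap for Epcam over Krt19.

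A list of 26 other genes of cholangiocytes and liver progenitors, chosen with earlier results of these data known, was read beside the 7 ductular genes. All 26 were in the table and 6 had a mean of at least 1 FPKM. Of these 6, limma called 0 in either direction, against 1.48% of all tested genes, and 4 had a positive log2 fold change. Their median log2 fold change was 0.52, against -0.27 over all tested genes, and 0.90 against 0.01 after scaling. Tnfrsf12a, the receptor of the cytokine TWEAK, which drives progenitor growth, was at 7.25, 64.3 and 17.0 FPKM in DEN+CCl4 livers, against 3.02, 4.40 and 4.86 FPKM in control livers. It was above all controls in every DEN+CCl4 liver, and did not pass (log2 fold change 2.08, limma adjusted p = 0.167). Spp1, the secreted protein osteopontin made by ductular cells and macrophages, was at 12.9, 27.4 and 24.2 FPKM in DEN+CCl4 livers and 14.9, 8.75 and 8.20 FPKM in controls, which overlapped (log2 fold change 0.94; limma adjusted p = 0.990).

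Of the 26, 6 were above all controls in all DEN+CCl4 livers and 0 below as deposited, against 3.83% and 4.06% of all genes above 0. After scaling the counts were 9 and 0, against 7.68% and 4.63%. Among genes with a mean of 0.1 to 1 FPKM, the shares above and below were 6.76% and 5.08% as deposited and 13.1% and 4.88% after scaling. Besides Tnfrsf12a, the 6 above as deposited were Prom1, Sox4, Elf3, Ehf and Ncam1, named after their values were seen. Prom1, the stem cell antigen CD133, was at 0.17, 1.00 and 0.39 FPKM in DEN+CCl4 livers, against 0.07, 0.02 and 0.02 FPKM in controls. Sox4, a transcription factor that acts with Sox9 in duct formation, was at 0.14, 0.45 and 0.23 FPKM in DEN+CCl4 livers, against 0.06, 0.04 and 0.03 FPKM in controls. Elf3, an epithelial ETS factor, was at 0.31, 0.44 and 0.82 FPKM in DEN+CCl4 livers, against 0.15, 0.11 and 0.05 FPKM in controls. Cftr, the chloride channel of ducts, also named after its values were seen, was at or below 0.04 FPKM throughout.

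Genes of the Notch pathway, which drives Sox9 and duct formation, were listed as 15 genes, all in the table. Of the 5 tested, 0 were called, against 1.48% of all tested genes, and 3 had a positive log2 fold change. Their median log2 fold change was 0.02, against -0.27 over all tested genes, and 0.16 against 0.01 after scaling. Hes1, a Notch target, was at 1.62, 10.7 and 4.04 FPKM in DEN+CCl4 livers and 1.14, 2.95 and 0.49 FPKM in controls, with the 6 libraries in the same order as for Sox9 (log2 fold change 1.21; limma adjusted p = 0.429). Maml1, a coactivator of Notch, was at 2.78, 4.04 and 0.25 FPKM in DEN+CCl4 livers and 1.21, 2.77 and 2.08 FPKM in controls (log2 fold change -0.04; limma adjusted p = 0.999).

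Partners that anchor keratin filaments were listed as 14 genes, of which 13 were in the table and 9 were tested. Of these 9, 0 were called, against 1.48% of all tested genes. Their median log2 fold change was -0.15 as deposited, against -0.27 over all tested genes, and 0.16 against 0.01 after scaling. Sqstm1, the p62 protein that gathers with Krt8 and Krt18 in the Mallory-Denk bodies of injured hepatocytes, was at 51.7, 41.2 and 14.7 FPKM in DEN+CCl4 livers and 57.4, 40.6 and 56.6 FPKM in controls (log2 fold change -0.67; limma adjusted p = 0.996). Pkp4, a plakophilin of cell junctions, was at 6.15, 6.74 and 4.41 FPKM in DEN+CCl4 livers and 5.71, 4.68 and 5.71 FPKM in controls. Of 12 tested tight junction genes, 0 were called, against 1.48% of all tested genes, and 9 had a positive log2 fold change. Their median log2 fold change was 0.24, against -0.27 over all tested genes, and 0.56 against 0.01 after scaling. Cldn3, the most abundant claudin listed, was at 80.1, 125 and 19.2 FPKM in DEN+CCl4 livers and 74.5, 70.3 and 85.2 FPKM in controls, and F11r, a junctional adhesion molecule, was at 10.8, 27.5 and 9.48 FPKM in DEN+CCl4 livers and 9.58, 9.01 and 8.39 FPKM in controls. Of 4 tested intermediate filament genes outside the keratins, 0 were called, against 1.48% of all tested genes. Vim, the mesenchymal filament vimentin, was at 4.57, 7.49 and 3.93 FPKM in DEN+CCl4 livers and 2.04, 2.34 and 1.83 FPKM in controls, with no overlap (log2 fold change 1.01; limma adjusted p = 0.736). As deposited, 3.01% of tested genes were likewise above all controls in all DEN+CCl4 livers, and Vim was the 1 such gene of the 8 listed. Lmna, the nuclear lamin, was at 5.16, 10.9 and 3.09 FPKM in DEN+CCl4 livers and 4.73, 4.32 and 5.24 FPKM in controls.

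Markers of other cell types that share these genes were read for each library. The 11 hepatocyte genes in the table had summed levels of 13499 to 66289 FPKM in DEN+CCl4 livers and 30565 to 48922 FPKM in controls, with Alb, serum albumin, at 11748, 24459 and 7482 FPKM in DEN+CCl4 livers and 15311, 13751 and 23556 FPKM in controls. The liver label thus held in all 6 libraries. Of the 11 hepatocyte genes tested, 1 was called, Cyp2e1, against 1.48% of all tested genes. Cyp2e1 was at 804, 103 and 2.39 FPKM in DEN+CCl4 livers, against 1885, 755 and 2239 FPKM in controls (log2 fold change -4.49; limma adjusted p = 0.00885). As deposited its groups overlapped, since DEN+CCl4 replicate 1 was above control replicate 2. After scaling all DEN+CCl4 livers were below all controls for Cyp2e1, as in 6.52% of tested genes. Apoa1, the main protein of high density lipoprotein, was at 10250, 35125 and 4111 FPKM in DEN+CCl4 livers and 12182, 10628 and 12690 FPKM in controls.

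Mesothelial cells, which cover the liver, also make Krt7, Krt8, Krt18 and Krt19. The 8 mesothelial genes summed to 0.59, 3.16 and 0.07 FPKM in DEN+CCl4 livers and 0.12, 0.49 and 0.57 FPKM in control livers. Msln, mesothelin, was at 0.20, 2.13 and 0 FPKM in DEN+CCl4 livers and 0.02, 0.19 and 0.40 FPKM in controls, so it peaked in the same library as Krt19 and Krt7. Upk3b was at 0.05, 0.33 and 0 FPKM in DEN+CCl4 livers and 0.06, 0.14 and 0.07 FPKM in controls. The part of mesothelial RNA in the Krt19 and Krt7 values was not tested.

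The 5 neutrophil genes in the table summed to 15.9, 6.09 and 23.9 FPKM in DEN+CCl4 livers and 6.25, 2.35 and 1.84 FPKM in controls. S100a8, a calcium-binding protein of neutrophils, rose to 3.19, 1.38 and 8.96 FPKM in DEN+CCl4 livers, against 0.76, 0.42 and 0.34 FPKM in controls (log2 fold change 1.63; limma adjusted p = 0.0336), and it was the only call among the 2 tested, where 1.48% of all tested genes were called. The calls of S100a8 and Cyp2e1 were lost after median-ratio scaling and without DEN+CCl4 replicate 3, where limma called 0 genes of the whole table. After scaling their log2 fold changes were 2.00 for S100a8 and -4.10 for Cyp2e1 (limma adjusted p = 0.462 and 0.453). Its partner S100a9 was at 10.8, 3.64 and 12.4 FPKM in DEN+CCl4 livers and 3.72, 1.79 and 1.30 FPKM in controls. S100a8 and Cd24a both had their highest value in DEN+CCl4 replicate 3, and the part of neutrophil RNA in Cd24a was not tested. B cell genes summed to 0.64 to 5.86 FPKM in DEN+CCl4 livers and 3.58 to 5.23 FPKM in controls, with Cd79a at 3.39, 3.18 and 0.33 FPKM in DEN+CCl4 livers and 1.98, 3.03 and 2.45 FPKM in controls, and Cd79b at 0.14 to 1.33 FPKM in DEN+CCl4 livers and 1.01 to 1.09 FPKM in controls. Erythroid genes summed to 447, 2649 and 142 FPKM in DEN+CCl4 livers and 639, 236 and 364 FPKM in controls, led by the globins Hba-a1 and Hba-a2, with the highest sum in DEN+CCl4 replicate 2.

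Stellate cell and fibroblast genes summed to 20.2, 37.8 and 15.2 FPKM in DEN+CCl4 livers and 12.6, 7.83 and 12.2 FPKM in controls, with 0 of 5 tested called, against 1.48% of all tested genes. As deposited, 5 of the 9 listed were above all controls in all DEN+CCl4 livers and 1, Lrat, was below. The shares of all genes above 0 were 3.83% and 4.06%. After scaling the counts were 7 and 0, against 7.68% and 4.63%. Lrat, named after its values were seen, was at 0.31, 0.35 and 0.15 FPKM in DEN+CCl4 livers and 0.58, 0.46 and 0.40 FPKM in controls. Acta2, the smooth muscle actin of activated stellate cells, was at 2.87, 10.9 and 3.87 FPKM in DEN+CCl4 livers and 1.58, 1.44 and 1.08 FPKM in controls, and Dcn, decorin, was at 6.45, 3.90 and 3.35 FPKM in DEN+CCl4 livers and 6.13, 1.99 and 6.18 FPKM in controls. Macrophage and endothelial genes had 0 calls among 4 tested in each list, against 1.48% of all tested genes. Of the macrophage genes, Clec4f was at 2.83 to 20.8 FPKM in DEN+CCl4 livers and 18.6 to 40.5 FPKM in controls, and Cd68 at 3.65 to 11.4 FPKM in DEN+CCl4 livers and 3.26 to 10.6 FPKM in controls. Of the endothelial genes, Clec4g was at 2.33 to 8.84 FPKM in DEN+CCl4 livers and 5.08 to 8.61 FPKM in controls, and Stab2 at 1.40 to 4.14 FPKM in DEN+CCl4 livers and 3.02 to 5.77 FPKM in controls.

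**Figure D5:**
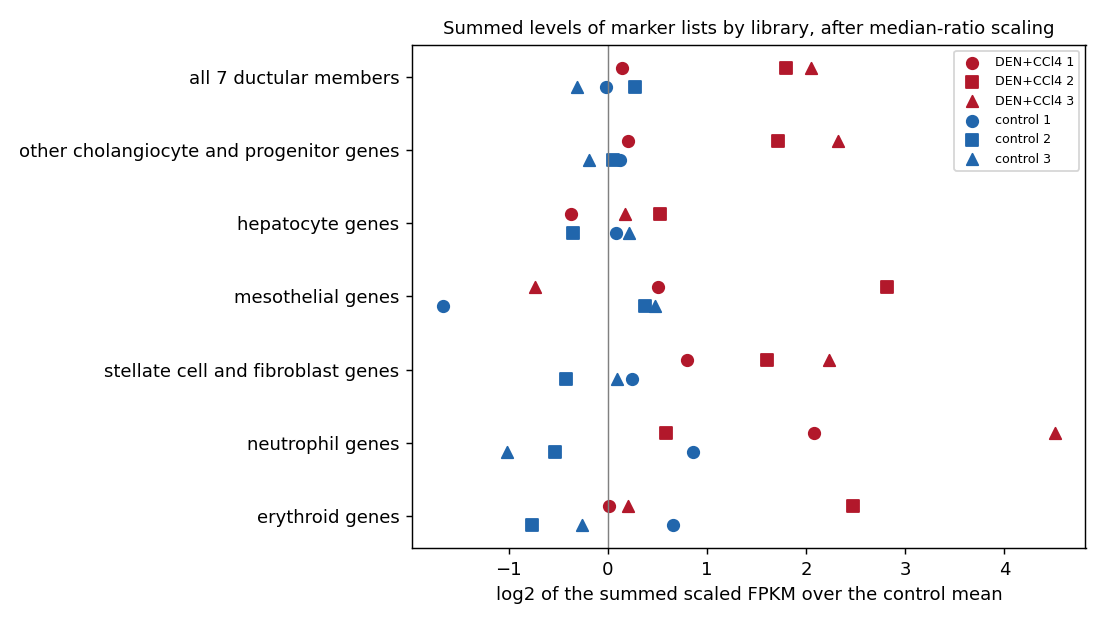
Log2 of the summed median-ratio scaled FPKM of each marker list over its control mean, with DEN+CCl4 livers in red above control livers in blue and 1 marker shape per replicate number. The sum of the 7 ductular genes in DEN+CCl4 livers lies above the mean of controls by 0.14, 1.79 and 2.05 log2 units, beside 0.20, 1.71 and 2.32 for the other cholangiocyte and progenitor genes and 0.80, 1.60 and 2.23 for stellate cell and fibroblast genes. Control replicate 2 lies at 0.27 for the 7 ductular genes. In DEN+CCl4 replicate 3, Cd24a and Sox9 give 3.31 and 2.98 of the scaled ductular sum of 7.66. Krt19, Krt7, Epcam and Cldn7 lie below all controls there. Tnfrsf12a and Spp1 give 47.7 and 67.9 of the scaled sum of 145 of the other cholangiocyte and progenitor genes in DEN+CCl4 replicate 3.

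The genes most like the mean of Krt8 and Krt18 over the 6 libraries were sought among 7487 tested genes, by the root mean square difference of centred log2 values after median-ratio scaling. They were Ywhab (0.0759), Rpl3 (0.0779), Litaf (0.0828), Chmp4b (0.0833) and Tomm20 (0.0952), for a profile that ranged over 1.80 log2 units. Ywhab, a 14-3-3 protein, was at 4.95, 6.27 and 3.82 FPKM in DEN+CCl4 livers and 6.19, 2.56 and 5.02 FPKM in controls, with control replicate 2 lowest. After scaling Ywhab was at 3.88, 4.57 and 10.7 in DEN+CCl4 livers and 5.31, 2.21 and 3.99 in controls. Like Krt8 and Krt18, each of these genes was highest in DEN+CCl4 replicate 3 after scaling, which follows from their choice by likeness to that scaled profile. For the mean of Krt19 and Epcam, whose profile ranged over 0.67 log2 units, the most alike were Snrpa (0.0534), Sertad3 (0.0655), Arhgap21 (0.0756), Dctn6 (0.0796) and Trappc6a (0.0804).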

How the data were processed

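Gene levels were deposited by the authors as FPKM with 2 decimals, 1 column per library, per the file headers. The submitters' processing notes name HISAT, StringTie and GRCm38, with no version, annotation or strand setting. Without strand, reads of Krt8 and of Krt7 over the 101 and 77 exon bases they share with antisense genes cannot be told apart. Since FPKM is relative to the total, abundant genes in a library lower the values of its other genes.

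The 8528 genes whose mean over the 6 libraries reached 1 FPKM were tested on log2(FPKM + 1) with limma 3.58.1 in R 4.3.3 (trended empirical Bayes, two-sided, Benjamini-Hochberg adjustment over all 8528 genes). Single values had an exact permutation test over the 3 against 3 libraries. Ratios within a library added 0.01 FPKM to both terms. Locations and 31-base words came from GENCODE M21 and promoters from RefSeq, both on GRCm38. Python 3.11.15 was used for the rest. The limma test was tested on simulated data.

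No label ties a library to a separate animal, so a p-value here measures only the spread between these libraries, which may be technical. A limma p-value also draws on the spread of other genes of similar level. The 9 genes and all lists were chosen with earlier results of these data known. Named were the 9 genes, up to 4 called genes of each list or, where fewer than 2 were called, its 2 most abundant genes, and the 5 genes most like each profile; others are marked where printed. The alternatives were other pseudocounts, filters and scalings, limma without the trend, a replicate block and leaving out each library.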

Additional observations from a re-analysis of the deposited data

How the results depend on the processing

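Under the 21 alternatives tried for Krt18, its log2 fold change stayed positive and did not pass, from 0.12 to 1.25. Sox9, Cd24a, Krt23 and Epcam kept their direction in all 19 of theirs. Leaving out 1 library at a time gave log2 fold changes of -0.60 to 0.16 for Krt8, 0.12 to 0.49 for Krt18, -0.043 to 0.22 for Krt7, -0.26 to 0.66 for Krt19, 0.03 to 0.46 for Krt23, -0.19 to -0.12 for Epcam, 0.36 to 1.08 for Sox9, -0.058 to 0.067 for Cldn7 and 0.27 to 0.55 for Cd24a. Krt8 turned positive with median-ratio scaling (0.24, also with the replicate block or with the filter on scaled values), quantile normalization (0.52) and median-ratio scaling without DEN+CCl4 replicate 1 (0.19 with either filter). Krt8 also turned without DEN+CCl4 replicate 3 (0.16), Krt19 with a pseudocount of 0.01 (-0.024) and without DEN+CCl4 replicate 2 (-0.26), and Krt7 without that replicate (-0.043). Cldn7 turned without mitochondrially encoded genes (0.0024), without DEN+CCl4 replicate 3 (0.067, and 0.043 with scaling) and without control replicate 2 (0.044). The cause of these turns was not tested.

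The number of the 9 genes called higher was 0, and 1 with median-ratio scaling and the filter on scaled values without DEN+CCl4 replicate 1, a setting added after the data were seen, in which 318 genes of 8249 were called higher and 357 lower. The 1 gene is Sox9, which enters that fit through its high DEN+CCl4 values. The number called lower was 0 throughout. The log2 ratios differed between the groups by -1.06 to -0.21 (Krt8 over Krt18), -1.19 to 0.79 (Krt19 over Krt18), -0.082 to 0.36 (Krt7 over Krt19) and -2.49 to -1.52 (Epcam over Krt19) with 1 library left out. With 0.1 FPKM added, Epcam over Krt19 differed by -0.99. The counts of genes called over the whole table moved far more: 71 higher and 55 lower as deposited, 109 and 270 when DEN+CCl4 replicate 1 was left out, and 0 in both directions after median-ratio scaling (limma; 468 and 446 at an unadjusted p under 0.05) or when DEN+CCl4 replicate 3 was left out (522 and 139). With the scaling and without DEN+CCl4 replicate 1 they were 292 and 364.

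Same-numbered libraries of the groups did not deviate together throughout (Pearson's r across genes 0.07, 0.42 and -0.15), so the numbers were not taken as pairs. With the replicate number as a replicate block, the log2 fold changes stood as above, since the groups are balanced (limma adjusted p 0.895 for Epcam and 0.899 for Sox9), 62 genes were higher and 32 lower over the whole table, and 0 of the 9 were called. Without counts, precision at low FPKM is unknown.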
